A study of Mus musculus with 6 samples.

Results

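Cadherins and protocadherins are the adhesion proteins by which cells recognise and hold their neighbours, and their RNA was compared here between WT and SIRT1 KO mouse embryonic stem cells (mESCs). Members were all genes of the deposited table named Cdh followed by a number, or with a name that begins with Pcdh. This gave 92 of 54352 genes. They comprised 18 classical cadherins, 5 other genes of the Cdh series, 57 protocadherins of the 3 gene clusters (13 Pcdha, 22 Pcdhb and 22 Pcdhg) and 12 other protocadherins. RNA was sequenced from 3 WT and 3 SIRT1 KO libraries. The labels give both genotypes as male embryonic stem cells of the 129Sv/J strain, and the study grew the cells for sequencing in ESGRO medium. SIRT1 is a protein deacetylase that uses NAD+. SIRT1 KO mESCs are described in the study as made by gene targeting in the R1 line, with WT R1 cells beside them. Each genotype is thus 1 line, so p-values measure only the spread between libraries.

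Classical cadherins bind the same cadherin on the next cell through their calcium-dependent extracellular repeats and bind catenins inside the cell, which link them to actin. Type I members such as E-cadherin (Cdh1) hold epithelia and stem cell colonies together, and E-cadherin is the cadherin for which mouse embryonic stem cells are known. Clustered protocadherins are made from arrays of alternative first exons, each with a promoter of its own. In neurons, each cell uses a small choice of them, which gives the cell a surface identity that lets its own branches avoid one another. The non-clustered protocadherins, among them Pcdh19, act in neural development and cell sorting.

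All values are the log2 normalized values of the authors, in which a difference of 1 is a 2-fold difference of the deposited values. The transformation behind them is not stated, and they draw low genes together between libraries, so a fold or a level per kb is on this scale and may understate the change of low genes. A gene was tested where its mean was at least 10 on the linear scale, and was called higher or lower in SIRT1 KO mESCs at an adjusted p under 0.01 in limma, a linear model fitted to all 26571 genes that passed. The log2 fold change is SIRT1 KO minus WT, with its standard error (SE). Spread within a genotype is given as the SD over 3 libraries. Sirt1 itself was 15.51 ± 0.026 in WT and 13.74 ± 0.042 in SIRT1 KO, and its log2 fold change was -1.78 with an SE of 0.049 (adjusted p = 1.16e-07). With 3 against 3 libraries an exact two-sided permutation test cannot go below p = 0.1, the value it gave for Sirt1. Libraries of 1 genotype correlated at 0.998 or more, and WT 2 stood farthest from its group (root mean square deviation 0.141, against 0.0662 for the closest library). Of 8 stem cell markers, 1 fell (Klf4) and none rose by the limma test, with 2 lower and 1 higher at an unadjusted p under 0.05. Their summed level was 20.88 to 21.04 in WT and 21.00 to 21.05 in SIRT1 KO on the log2 scale. The 8 fibroblast markers summed to 11.97 to 12.11 in WT and 11.98 to 12.17 in SIRT1 KO, with Dcn and Postn at 0, Col3a1 and Lum under the minimum, Thy1 lower (-0.56, adjusted p = 0.00087) and Pdgfrb higher (0.38, adjusted p = 0.00545). Markers of primitive endoderm summed to 10.85 to 11.06 in WT and 11.15 to 11.34 in SIRT1 KO, with 3 of 7 lower (Gata6, Pdgfra and Dab2) and 1 higher (Sox7). Those of neural progenitors summed to 15.73 to 15.98 and 16.13 to 16.14, with 1 of 7 lower (Sox1) and 1 higher (Nes). Of all tested genes, 8.12% were called lower and 8.47% higher, and their share at an unadjusted p under 0.05 was not counted. The highest genes weigh most in a sum. These were Sox7 in endoderm (linear mean 1048), and Tubb3 and Nes in neural progenitors (43601 and 18197). The part of these cell types in the results was not tested. In RNA from whole cultures, fewer cells of a type and less RNA per cell cannot be told apart.

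E-cadherin dominated the family. Levels of different genes were compared per kilobase of the exon bases that no other annotated gene covers, on the linear scale, for the 84 members with enough such bases and a level above 0. Cdh1 stood at 15786 ± 2272 per kb in WT, which was 10.7 times the next member and 91.7 times Cdh2, the N-cadherin of neural and mesenchymal cells. The next members were Pcdhgc3 (1478 per kb), P-cadherin (Cdh3, 993 per kb) and the type II cadherin Cdh24 (763 per kb). The classes differed widely in level. The 21 measured Pcdhg genes ranged from 24.8 to 1478 per kb with a median of 188 per kb. The 9 measured Pcdha genes had a median of 0.904 per kb and reached 3.74 (Pcdhac2). The 19 measured Pcdhb genes had a median of 1.08 per kb and reached 8.19 (Pcdhb17). Thus every measured gene of the gamma cluster stood above every measured gene of the alpha and beta clusters. Among the classical cadherins, the 5 type I genes had a median of 263 per kb and the 13 type II genes a median of 3.01 per kb. On this scale the levels of the lowest genes are less certain than those of the high ones.

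**Figure D1:**
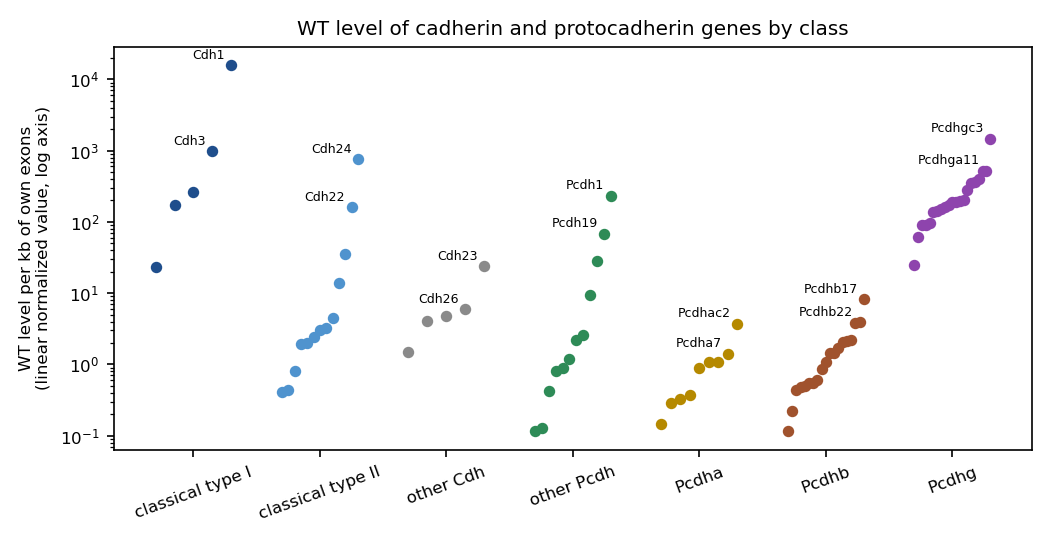
Level in WT mESCs of each cadherin and protocadherin, as the linear normalized value per kb of its own exon bases on a log axis, with 1 point per gene, classes side by side and the 2 highest genes of each class named. Cdh1 stands at 15786 per kb, above all others, and the Pcdhg genes (24.8 to 1478) stand apart from the Pcdha and Pcdhb genes (all at 8.19 or less).

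Most members were not called between the genotypes. Of the 92, 7 were at 0 in all 6 libraries and 34 more were under the minimum, which left 51 to test. Of these 51, 1 fell (1.96%, against 8.12% of all tested genes) and 3 rose (5.88%, against 8.47%), while 47 were not called. The share called was 7.84%, against 16.6% of all tested genes. The gene that fell was Pcdh19, and those that rose were Cdh4, Cdh22 and Pcdhga8. The libraries of the 2 genotypes did not overlap for 18 of the 51 (35.3%, against 44.7% of all genes). The median log2 fold change of the members was -0.02, beside -0.01 for all tested genes, and the range was -0.69 to 1.02. After centring each library on its median, 33 rather than 23 of the 51 had a positive fold change. At an adjusted p under 0.05, 5 fell and 5 rose, beside 14.2% and 14.3% of all tested genes and 28.5% in both directions. Classical cadherins gave 2 higher and 0 lower of 14 tested, with a median of 0.01. Clustered protocadherins gave 1 higher and 0 lower of 25 tested, with a median of 0.02. The 12 other protocadherins gave 1 lower and 0 higher of 7 tested, with a median of -0.08. None of the 5 other Cdh genes was called by limma, and their median was -0.06. At an unadjusted limma p under 0.05, 1 classical cadherin was lower and 3 were higher, and 3 clustered protocadherins were lower and 4 higher. Likewise 4 other protocadherins and 2 other Cdh genes were lower, and 0 of either were higher. The share of all tested genes at that unadjusted p was not counted, but is at least the 28.5% at an adjusted p under 0.05.

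**Figure D2:**
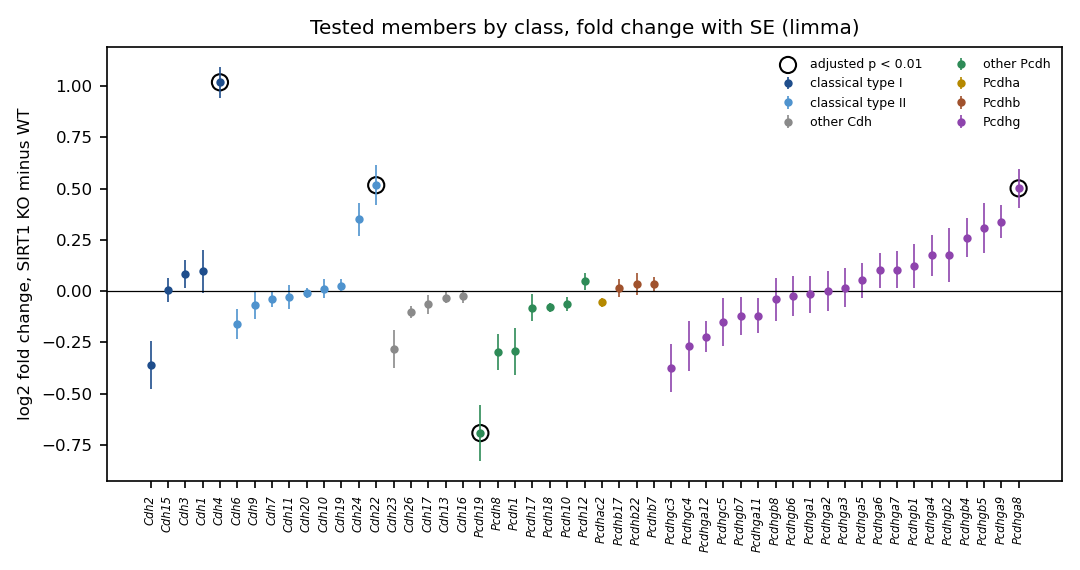
Log2 fold change (SIRT1 KO minus WT, with SE from limma) of the 51 tested members, grouped by class and ordered within it, with circles round the 4 called at an adjusted p under 0.01. Cdh4 lies highest at 1.02 and Pcdh19 lowest at -0.69, and most others lie near 0.

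Cdh4, the R-cadherin first described in retina, changed most of all members and doubled in level. It is a type I classical cadherin (ENSMUSG00000000305.12, chr2:179442431-179899373, plus strand, GRCm38). Its log2 values were 10.85, 10.85 and 11.00 in WT 1 to 3 and 12.03, 11.87 and 11.86 in SIRT1 KO 1 to 3. All SIRT1 KO libraries were above all WT libraries, and the gap between the genotypes was far wider than the spread within either (SD 0.085 and 0.095). The log2 fold change was 1.02 (SE 0.076, 95% interval 0.85 to 1.19), a fold of 2.03, with an adjusted p of 2.51e-05. Cdh4 was called under all 16 other settings of the analysis, with adjusted p between 4.79e-06 and 0.000349. Per kb it went from 263 in WT to 534 in SIRT1 KO, against 172 and 135 for Cdh2. The 10 tested protein-coding genes outside the family nearest to Cdh4 on chromosome 2 did not share its rise, with a median of -0.09 (range -0.39 to 0.19, 2 lower and 0 higher).

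Cdh22, a type II cadherin that is expressed in brain and lies on the same chromosome (ENSMUSG00000053166.14, chr2:165111507-165234853, minus strand), also rose. Its log2 values were 9.18, 9.25 and 9.29 in WT and 9.95, 9.70 and 9.62 in SIRT1 KO. The genotypes did not overlap, and SIRT1 KO 1 was the highest library. The log2 fold change was 0.52 (SE 0.099, 95% interval 0.29 to 0.74, adjusted p = 0.00458), a fold of 1.43. The call was lost without any of 4 libraries, with adjusted p of 0.012 (WT 1), 0.0155 (WT 3), 0.0117 (SIRT1 KO 1) and 0.0165 (SIRT1 KO 2). Its 10 nearest tested protein-coding genes outside the family had a median of 0.12 (range -0.14 to 0.41, 0 lower and 1 higher). Cdh24, the highest type II cadherin of these cells (chr14:54631231-54641364, minus strand), was 11.27, 11.34 and 11.51 in WT and 11.78, 11.73 and 11.65 in SIRT1 KO. Its libraries did not overlap, but the log2 fold change of 0.35 (SE 0.079) missed the threshold with an adjusted p of 0.0108. It was called after centring all libraries on their median (adjusted p = 0.00531), with robust moderation (0.00748) and without WT 3 (0.00741).

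E-cadherin, P-cadherin and N-cadherin did not pass the test. E-cadherin (Cdh1, ENSMUSG00000000303.12, chr8:106603351-106670246, plus strand) was 16.00, 16.36 and 16.02 in WT and 16.38, 16.17 and 16.13 in SIRT1 KO. The genotypes overlapped, with WT 2 close to the highest SIRT1 KO library and above the other 2 of them. The log2 fold change was 0.10 (SE 0.10, 95% interval -0.14 to 0.33, adjusted p = 0.533). It moved between 0.02 without SIRT1 KO 1 and 0.21 without WT 2 (adjusted p = 0.0347), positive and not called under all 16 other settings. P-cadherin (Cdh3), which lies beside it on chromosome 8, was 12.14, 12.07 and 12.06 in WT and 12.28, 12.12 and 12.11 in SIRT1 KO, a difference of 0.08 on the log2 scale (SE 0.067) with an adjusted p of 0.401. Here too the genotypes overlapped. N-cadherin (Cdh2) was 10.31, 10.59 and 10.41 in WT and 9.86, 10.10 and 10.27 in SIRT1 KO. All its SIRT1 KO libraries were below all WT libraries, closely so for SIRT1 KO 3 and WT 1, and the log2 fold change of -0.36 (SE 0.12, 95% interval -0.63 to -0.09) had an adjusted p of 0.0501. The difference Cdh1 minus Cdh2 within a library was 5.70, 5.77 and 5.61 in WT and 6.52, 6.07 and 5.86 in SIRT1 KO. It was higher in SIRT1 KO by 0.46 with no overlap, and by 0.27 without SIRT1 KO 1. Cdh2 was picked after its values were seen, so this difference carries no test. Cdh15, the M-cadherin of muscle, gave 0.00 (adjusted p = 0.973), and Cdh6 gave -0.16 (adjusted p = 0.139). The remaining tested type II genes, Cdh7, Cdh9, Cdh10, Cdh11, Cdh19 and Cdh20, lay between -0.07 and 0.03. Cdh5, the cadherin of endothelium, and Cdh8, Cdh12 and Cdh18 were under the minimum.

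**Figure D3:**
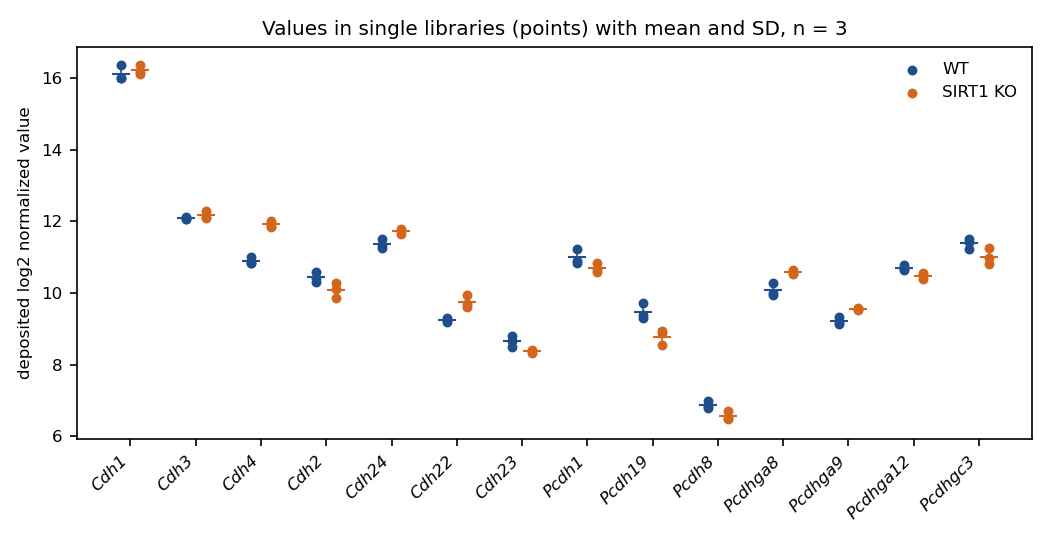
Deposited log2 normalized values of 14 cadherins and protocadherins in each of the 3 WT and 3 SIRT1 KO libraries (points), with the mean and SD as lines. The genotypes stand clearly apart for Cdh4 (10.85 to 11.00 against 11.86 to 12.03) and for Pcdh19 in the opposite direction, and overlap for Cdh1 and Cdh3.

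Pcdh19 was the member that fell. It is a delta-2 protocadherin, known in humans as an X-linked epilepsy gene that acts together with N-cadherin (ENSMUSG00000051323.16, chrX:133582860-133688987, minus strand). Its log2 values were 9.39, 9.71 and 9.31 in WT and 8.54, 8.87 and 8.92 in SIRT1 KO. Every SIRT1 KO library was below every WT library, and WT 2 and SIRT1 KO 1 were the extremes. The log2 fold change was -0.69 (SE 0.14, 95% interval -1.0 to -0.38, adjusted p = 0.0052), so that 0.619 of the WT level remained. The call was lost after quantile normalization (adjusted p = 0.0109) and without WT 3 (0.0105), SIRT1 KO 1 (0.0199), SIRT1 KO 2 (0.0163) or SIRT1 KO 3 (0.0123). Its 10 nearest tested protein-coding genes outside the family on chromosome X had a median of 0.00 (range -0.48 to 0.24, 1 lower and 1 higher).

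The other protocadherins outside the clusters were mostly below their WT level without passing the test. Of 7 tested, Pcdh19 included, 6 had a negative log2 fold change. Pcdh1, the highest of them, was 10.85, 11.24 and 10.90 in WT and 10.85, 10.60 and 10.67 in SIRT1 KO. SIRT1 KO 1 reached the lowest WT library, and the log2 fold change was -0.29 (SE 0.11, adjusted p = 0.0911). Pcdh8, which acts in cell movements of the paraxial mesoderm and at synapses, was 6.97, 6.78 and 6.83 in WT and 6.47, 6.71 and 6.50 in SIRT1 KO. It did not overlap, with a fold change of -0.30 in log2 units (SE 0.088, adjusted p = 0.0333). Pcdh17 gave -0.08 (adjusted p = 0.418), Pcdh18 -0.08 (adjusted p = 0.0286) and Pcdh10 -0.06 (adjusted p = 0.184), while Pcdh12, a protocadherin of endothelium, gave 0.05 (adjusted p = 0.42). Pcdh10 and Pcdh18 lay close to the minimum of 10, with linear means of 12.6 and 13.3. Pcdh7, Pcdh9, Pcdh11x, Pcdh15 and Pcdh20 were under the minimum. Of the other Cdh genes, Cdh23, a component of the tip links of inner ear hair cells, was 8.50, 8.79 and 8.65 in WT and 8.38, 8.39 and 8.33 in SIRT1 KO. It did not overlap, with a fold change of -0.28 in log2 units (SE 0.093, adjusted p = 0.0506). Cdh26 gave -0.10 (adjusted p = 0.0259), Cdh17, the cadherin of liver and intestine, -0.06 (adjusted p = 0.351), and Cdh13 and Cdh16 lay at -0.03 each. All 5 were negative, but Cdh13 and Cdh16 turned positive after median centring, which moved the median of all genes by 0.06.

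Promoter sequences from RefSeq (GRCm38.p6) were found for 2 of the 4 called members, Cdh22 and Pcdh19, and are shown because these members changed in opposite directions. Cdh4 and Pcdhga8 are named only. Each window runs from 250 bases before the start of transcription to 50 after it, 5′ to 3′ on the strand of the gene. Cdh22 lies at chr2:165234688-165234987 (minus strand) and Pcdh19 at chrX:133688944-133689243 (minus strand). Capitals mark the GC box, GGGCGG or CCGCCC, which was searched on both strands.
Cdh22: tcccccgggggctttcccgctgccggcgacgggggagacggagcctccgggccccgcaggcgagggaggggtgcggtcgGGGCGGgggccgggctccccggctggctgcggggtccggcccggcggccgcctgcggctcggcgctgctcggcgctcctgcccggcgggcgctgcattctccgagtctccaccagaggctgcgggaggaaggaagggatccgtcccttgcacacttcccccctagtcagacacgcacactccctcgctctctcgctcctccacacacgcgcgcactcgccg
Pcdh19: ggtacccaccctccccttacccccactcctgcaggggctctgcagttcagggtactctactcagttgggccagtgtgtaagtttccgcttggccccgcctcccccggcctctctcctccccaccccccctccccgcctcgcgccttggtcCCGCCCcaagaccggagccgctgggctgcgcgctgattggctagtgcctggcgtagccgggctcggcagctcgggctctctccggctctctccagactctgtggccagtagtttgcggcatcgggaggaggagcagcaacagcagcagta
Both windows held 1 GC box, which 35.7% of the 32851 promoters of the same length also held at least once. Neither held the E box CACGTG, which 7.15% of all promoters held. Cdh22 had 38 CpG dinucleotides and a GC content of 76.3%, and Pcdh19 had 18 and 67.7%, beside medians of 7 and 52.7% over all promoters. A match of letters is a description of the window and not a bound site.

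The clustered protocadherins lie in a row of alpha, beta and gamma clusters on chromosome 18. In the alpha cluster, 3 of 13 genes (Pcdha4, Pcdha6 and Pcdha8) were at 0 in all libraries, 9 were under the minimum, and Pcdhac2, a C-type isoform, was the 1 gene tested (-0.05, adjusted p = 0.103). In the beta cluster, whose genes are single exons with no shared constant part, 3 of 22 (Pcdhb1, Pcdhb3 and Pcdhb10) were at 0 and 16 were under the minimum. The 3 tested were Pcdhb17 (0.01, adjusted p = 0.842), Pcdhb22 (0.03, adjusted p = 0.692) and Pcdhb7 (0.04, adjusted p = 0.472). Of the 22 gamma genes, 21 were tested and Pcdhga10 was at 0. The gamma genes share their last exons, and the table gives each a value of its own. Among protein-coding genes whose exons are all covered by other genes on the same strand, 102 of 102 were at 0. So were 34 of 35 of those covered by the opposite strand alone. Of those covered by both strands together, as Pcdhga10 is, 22 of 24 were at 0, against 16.0% of genes with no overlap. Pcdhga10 had 0 of its 4732 exon bases outside other genes. The value of a gamma gene is therefore read here as that of its variable exon and other bases of its own, and a value of 0 for Pcdhga10 says nothing about its RNA.

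Pcdhga8 was the clustered protocadherin that rose (ENSMUSG00000103897.1, chromosome 18, plus strand). Its log2 values were 10.01, 10.27 and 9.95 in WT and 10.53, 10.65 and 10.55 in SIRT1 KO. The genotypes did not overlap, although WT 2 stood above the other WT libraries. The log2 fold change was 0.50 (SE 0.095, 95% interval 0.28 to 0.72, adjusted p = 0.00444), a fold of 1.42. The call was lost without any of 5 libraries, with adjusted p of 0.0116 (WT 1), 0.0207 (WT 3), 0.0156 (SIRT1 KO 1), 0.0261 (SIRT1 KO 2) and 0.0199 (SIRT1 KO 3), and held without WT 2. Its 10 nearest tested protein-coding genes outside the family had a median of 0.17 (range -0.27 to 0.62, 0 lower and 3 higher). WT 2 was the highest WT library for 17 of the 21 tested gamma genes. The summed gamma level was 13.72, 13.94 and 13.76 in WT and 13.82, 13.85 and 13.76 in SIRT1 KO on the log2 scale. These ranges overlapped, so the total of the cluster gave no separation of the genotypes.

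The fold changes of the gamma genes varied with their position in the cluster. The gene order was read after the values had been seen, and the stretches named here carry no test. From the first gene to Pcdhga9, 11 of 13 tested genes had a positive log2 fold change, with a median of 0.12 (9 to 13 positive over the 16 other settings, of 12 or 13 tested). From Pcdhgb6 to the last gene, Pcdhgc5, 8 of 8 were negative, with a median of -0.14. The highest values sat next to each other in 4 neighbouring genes, Pcdhgb4 (0.26, adjusted p = 0.0731), Pcdhga8 (0.50), Pcdhgb5 (0.31, adjusted p = 0.0921) and Pcdhga9 (0.34, adjusted p = 0.0147). These 4, picked for their high values, were positive under all 16 other settings. Some of these settings, such as another threshold, cannot move a fold change. The libraries of these 4 did not overlap between genotypes, beside 44.7% of all tested genes and 28.6% of the tested gamma genes. Pcdhga9 was 9.12, 9.33 and 9.18 in WT and 9.55, 9.58 and 9.51 in SIRT1 KO, and was called after median centring (adjusted p = 0.00705), quantile normalization (0.00863), without the trend (0.00697) and without WT 2 (0.0051). The lowest values sat at the far end, in Pcdhga12 (-0.22, adjusted p = 0.0596), Pcdhgc3 (-0.38, adjusted p = 0.042), Pcdhgc4 (-0.27, adjusted p = 0.143) and Pcdhgc5 (-0.15, adjusted p = 0.375). Without WT 2 the last pair were -0.12 (Pcdhgc4) and -0.034 (Pcdhgc5). Pcdhgc3, the highest gamma gene, was 11.22, 11.51 and 11.43 in WT and 11.24, 10.97 and 10.82 in SIRT1 KO. Its SIRT1 KO 1 library lay within the WT range. Of the 8 genes at the far end, Pcdhgb6 and Pcdhgb8 turned positive after median centring, after quantile normalization and without WT 2, and 7 stayed negative without SIRT1 KO 1 or SIRT1 KO 3.

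As a share of the summed gamma level, the same values were set against the total of each library. The genes shown are among those with high or low fold changes above, so the shares are a description and no separate support. Pcdhga8 held 7.65%, 7.86% and 7.14% in WT and 10.3%, 10.9% and 10.8% in SIRT1 KO. Pcdhga9 held 4.12%, 4.09% and 4.17% in WT and 5.21%, 5.17% and 5.26% in SIRT1 KO. Both shares were higher in every SIRT1 KO library, by more than the spread within a genotype. Of their neighbours, Pcdhgb4 had shares that did not overlap between genotypes. Those of Pcdhgb5 overlapped, with 6.98%, 6.22% and 5.95% in WT and 6.92%, 9.08% and 7.72% in SIRT1 KO. Pcdhgc3 held 17.7%, 18.6% and 19.9% in WT and 16.8%, 13.6% and 13.03% in SIRT1 KO. Pcdhga12 held 12.2%, 11.2% and 11.5% in WT and 9.98%, 9.06% and 10.9% in SIRT1 KO. These 2 shares were lower in every SIRT1 KO library, most of all in SIRT1 KO 2 for Pcdhga12 and SIRT1 KO 3 for Pcdhgc3. The share of Pcdhgc3 was nearest to WT in SIRT1 KO 1. The log2 difference Pcdhga8 minus Pcdhgc3 was -1.21, -1.24 and -1.48 in WT and -0.71, -0.32 and -0.27 in SIRT1 KO. This difference was narrower in every SIRT1 KO library, by 0.88 on average. Pcdhga8 and Pcdhgc3 have the highest and the lowest fold change of the gamma genes, so this difference follows from those values and carries no test. The starts of Pcdhga8 and Pcdhgc3 lie 63.9 kb and 144.6 kb from that of the first gamma gene. No source used here states a strand setting for the counting. Exons of BC037039 and Gm37165 on the opposite strand overlap those of Pcdhgc3 and Pcdhga8 in part. Of genes covered in full by the opposite strand alone, 34 of 35 were at 0.

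**Figure D4:**
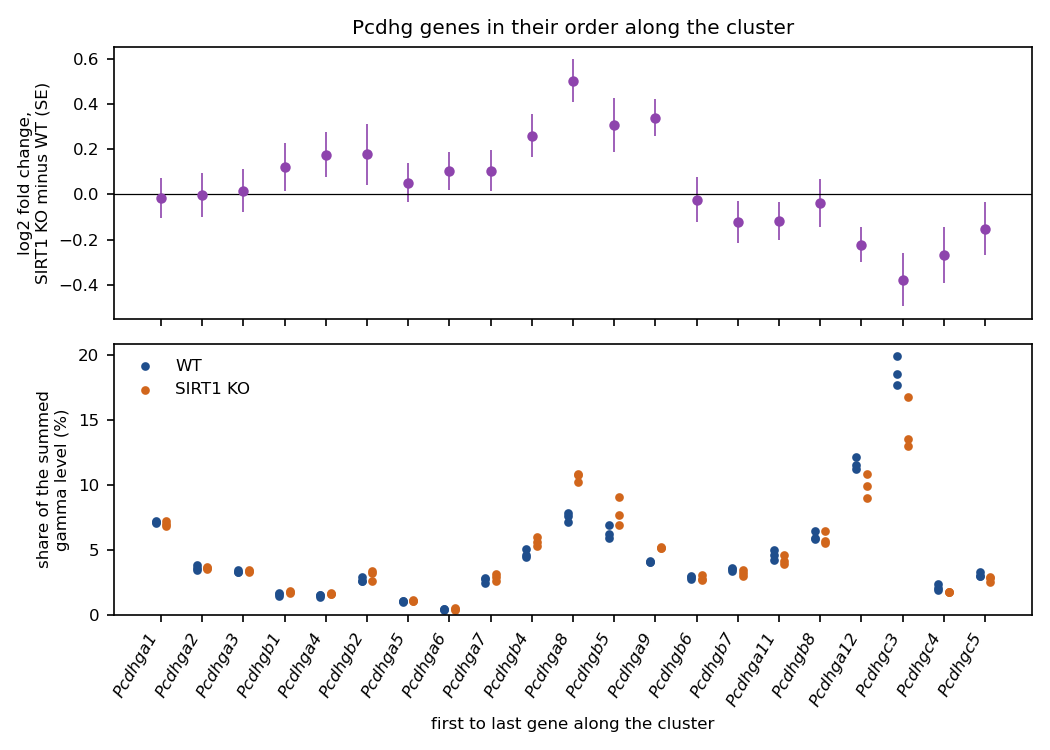
The 21 tested gamma protocadherins in their order along the cluster, with the log2 fold change and its SE above, and below the share of the summed gamma level (linear scale, %) in each WT and SIRT1 KO library. The log2 fold change is highest at Pcdhga8 (0.50), without a steady rise towards it. All 8 values from Pcdhgb6 (-0.02) on are negative, with the lowest at Pcdhgc3 (-0.38).

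Partners of cadherins at the junction were called in both directions. Of 16 catenins and junction adaptors, 15 were tested, 3 rose and 2 fell (beside 8.47% higher and 8.12% lower of all tested genes), with a median of -0.09. β-catenin (Ctnnb1), which binds the cadherin tail and carries Wnt signals, rose by 0.51 in log2 units with an SE of 0.051 (adjusted p = 0.000137). α-catenin (Ctnna1), the link to actin, rose by 0.35 (adjusted p = 0.000666), and plakoglobin (Jup), a relative of β-catenin, rose by 0.29 (adjusted p = 0.00278). Nectin3, an immunoglobulin-like adhesion receptor, fell by 0.51 (adjusted p = 0.000169), and Arvcf, a catenin of the p120 family, fell by 0.36 (adjusted p = 0.00131). The highest adaptor not called, Pkp4, gave -0.10 (adjusted p = 0.148). None of the 8 proteases and γ-secretase subunits that cut cadherins at the membrane was called by limma, beside 16.6% of all tested genes. Among them was Aph1a (0.07, adjusted p = 0.396). At an unadjusted p under 0.05, 2 were lower and 3 higher, a threshold at which the share of all genes was not counted. A list of 18 genes held other genes of the cadherin superfamily and Fjx1, which is not a cadherin. Of these, 14 were tested, 2 fell and 1 rose (background 8.12% and 8.47%), with a median of -0.05. The called genes were the giant atypical cadherin Fat2 (-0.92, adjusted p = 8.02e-05), the Golgi protein Fjx1 (-0.46, adjusted p = 0.00145) and calsyntenin Clstn3 (0.27, adjusted p = 0.00405). Clstn1 gave -0.06 (adjusted p = 0.339).

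Among 13 transcription and splicing factors of the switch between epithelial and mesenchymal states, 12 were tested, 3 fell and 1 rose (background 8.12% and 8.47%), with a median of 0.01. Grhl2, an activator of Cdh1 in epithelia, fell by 0.95 (adjusted p = 4.44e-05), and Ovol2, which holds cells epithelial, fell by 0.64 (adjusted p = 0.00095). Zeb1, a repressor of Cdh1, fell by 0.31 (adjusted p = 0.00266), and the epithelial splicing factor Esrp2 rose by 0.49 (adjusted p = 0.000568). Of the Snai, Zeb and Twist factors tested but not called, Zeb2 gave -0.38 (adjusted p = 0.0117) and Twist1 0.41 (adjusted p = 0.0106). Snai1, Snai2 and Snai3 gave 0.10, 0.05 and 0.17. Cdh1 itself did not pass the test, and whether these factors have a part in its level was not tested. Tcf3, the highest of the list not called, gave -0.18 (adjusted p = 0.0363). Of 16 chromatin factors known to act at the protocadherin clusters, all were tested, 1 fell and 5 rose (background again 8.12% and 8.47%), with a median of 0.01. Dnmt3a, a de novo DNA methyltransferase, fell by 1.20 (adjusted p = 4.53e-06), while Dnmt3b, its relative that methylates clustered protocadherin promoters in the mouse embryo, rose by 0.61 (adjusted p = 2.97e-05). The cohesin subunits Smc1a (0.47, adjusted p = 0.000678), Stag2 (0.32, adjusted p = 0.00187) and Smc3 (0.28, adjusted p = 0.0034) rose. The cohesin subunits Rad21 (0.07, adjusted p = 0.533) and Stag1 (-0.04, adjusted p = 0.584) were not called. The maintenance methyltransferase Dnmt1 rose as well (0.24, adjusted p = 0.00674). Wapl, the factor that releases cohesin, gave -0.09 (adjusted p = 0.215). Whether these factors have a part in the values of the gamma genes was not tested.

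**Figure D5:**
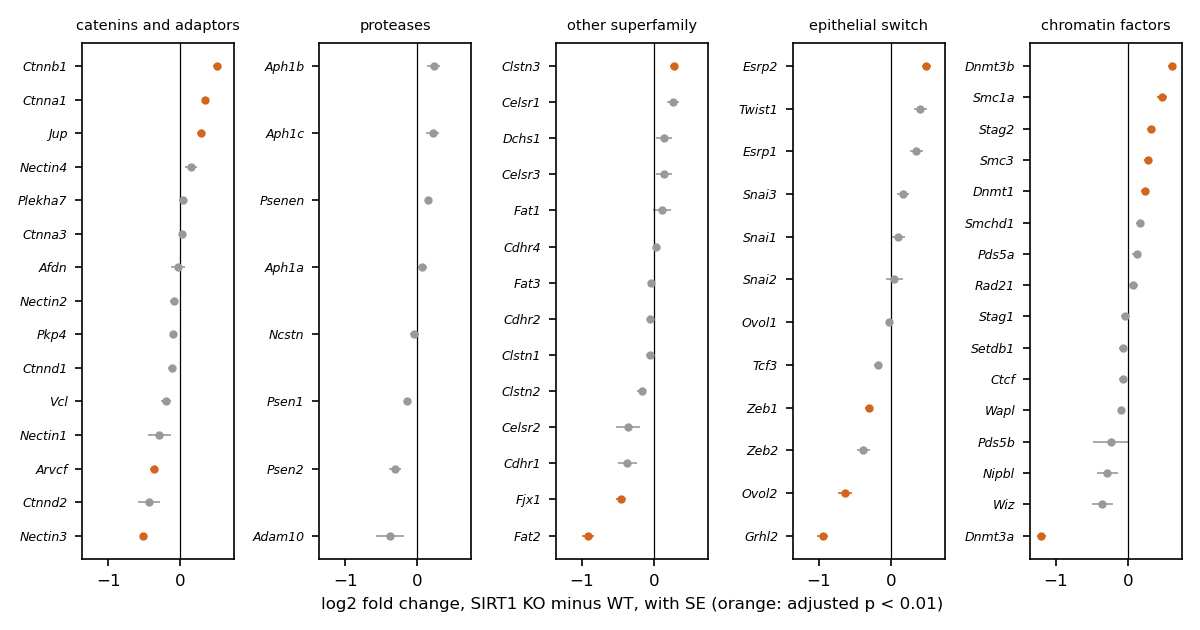
Log2 fold change (SIRT1 KO minus WT) with SE of the tested genes of 5 lists around the cadherins, with genes called at an adjusted p under 0.01 in orange. Ctnnb1 (0.51) and Dnmt3b (0.61) lie highest in their lists, Grhl2 (-0.95) and Dnmt3a (-1.20) lowest in theirs, and no protease is orange.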

How the data were processed

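The authors deposited 1 table of log2 values, derived from reads counted per gene. Per the study's methods and the submitters' processing notes, reads were trimmed with Trim Galore and aligned with STAR to GRCm38 (mm10), counted with featureCounts and normalized with DESeq2. The study's methods describe depletion of ribosomal RNA, the labels poly(A) enrichment. No counts were analysed, and the depth of single values is unknown. Genotypes were compared in R 4.3.3 with limma 3.58.1 (empirical Bayes with a trend), two-sided, with Benjamini-Hochberg adjustment over the 26571 genes with a linear mean of at least 10. The 16 alternatives were a replicate block, median centring, quantile normalization, no minimum, a minimum of 100, a pseudocount of 10, moderation without trend or robust, an adjusted p under 0.05, an added fold of 1.5, and each of 6 libraries left out. Levels per kb needed at least 500 exon bases of a gene's own. Only the limma fit was tested on simulated data.

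Exons and positions are from GENCODE vM21 on GRCm38, in which 91 of 92 members matched 1 gene. Same-numbered libraries deviated together (correlations 0.24, 0.15 and 0.32, against -0.30 to 0.08 for different numbers), and neither source says what a number stands for. Named were every called member, the 2 highest uncalled members of each class, and of each surrounding list up to 4 called genes and the highest uncalled gene. Other genes named were chosen after their values were seen, among them Cdh2, Pcdh8, Pcdhga9, Jup, Smc3 and Dnmt1. Members and lists were chosen with earlier results of these data known.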

Additional observations from a re-analysis of the deposited data

How the results depend on the processing

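For 45 named genes under 16 alternatives, 660 of 716 values kept their direction and their side of the threshold, 41 lost a call, 12 passed it newly and 3 turned sign. Alternatives that change only the block, the minimum, the moderation or the threshold leave a log2 fold change as it is. Direction could not turn under these, so the count of kept values says little about direction there. The sign changes were Pcdhac2 after median centring (0.0025), Pcdhb17 without SIRT1 KO 3 (-0.0032, at most 0.037 over left-out libraries) and Pcdhb22 without SIRT1 KO 2 (-0.011, at most 0.079). With the replicate number as a block, the counts stayed at 1 lower and 3 higher member, with Pcdh19 lower and Cdh4, Cdh22 and Pcdhga8 higher. The 1 lower member, the 1 lower protocadherin outside the clusters, went to 0 after quantile normalization, and leaving out a library gave 0 to 1. The 3 higher members became 5 after median centring and 1 with a fold of at least 1.5 added, and leaving out a library gave 1 to 4. The 2 higher classical cadherins became 1 with that fold, and 1 to 2 without a library. The 1 higher clustered protocadherin became 2 after median centring, quantile normalization or without the trend and 0 with that fold, and 0 to 2 without a library. At an adjusted p under 0.05 there were 5 lower and 5 higher members. By class these were 3 higher classical cadherins, 1 lower and 2 higher clustered protocadherins, 1 lower other Cdh gene and 3 lower other protocadherins, beside backgrounds of 14.2% lower and 14.3% higher. The cause of these changes was not tested, beyond the looser or stricter threshold itself.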
